A study of Mus musculus with 16 samples.

Results

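The genes described here are those whose messenger RNA differed in the same direction between visceral and subcutaneous fat in both genotypes of a mouse study of adipose tissue macrophages. Each gene was given the mean of the 8 visceral arrays minus the mean of the 8 subcutaneous arrays, with genotype and day as terms, and the sign of the difference had to be the same within each genotype. Of 17097 genes, 8568 (50.1%) had the same sign in both genotypes, with 4650 (27.2%) below 0 and 3918 (22.9%) above 0 in both, and 8529 had opposite signs. Of those 8568 genes, 208 passed the test of the shared difference at an adjusted p under 0.05, and these 208 are the members whose values follow.

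The study measured RNA from pools of macrophages taken from fat digested with collagenase, on 16 arrays in 4 groups of 4 pools. The groups were KO-LysM VAT, KO-LysM SAT, WT VAT and WT SAT, where VAT is visceral and SAT subcutaneous adipose tissue. Mice of both genotypes were 19 to 21 weeks old and carried floxed alleles of Sucnr1, the receptor for extracellular succinate, so the animals called WT were Sucnr1 flox/flox without deletion. In KO-LysM mice Cre was driven by the promoter of lysozyme M and removed Sucnr1 from myeloid cells, while other cells of the fat kept the gene. Every label also held the letters NCD, which it did not spell out, and the titles called WT pools untreated and the others treated with KO-LysM. One protocol named selection with CD11b beads, and another named cells positive for a different surface antigen, the product of Adgre1. RNA of 300000 cells went through 24 cycles of amplification, and each group had 2 pools on each of 2 days. The labels do not say how many mice made up a pool or whether pools of the 2 depots came from the same mice. The p-values therefore rest on the spread between pools, part of which may be technical. In the shared test that spread also holds any disagreement of the 2 genotypes over the depot difference.

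Macrophages of fat take up lipid, cell debris and iron, digest them in lysosomes, and can turn to inflammatory or to tissue-repairing states. Visceral and subcutaneous depots differ in the developmental origin of their stromal cells, in which homeobox genes and other positional factors keep the body position of the depot. Such positional and stromal transcripts can be carried along when macrophages are enriched with beads, and they can serve as a check of the depot from which a preparation came.

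The depot labels went against such genes in a comparison of the 2 genotypes, and this touches every direction given below. Tnnc2, a calcium sensor of fast skeletal muscle, had log2 levels of 6.95, 7.58, 7.37 and 8.06 in KO-LysM VAT, against 5.44, 5.94, 5.15 and 4.92 in KO-LysM SAT. The same gene had 6.01, 6.25, 4.82 and 5.47 in WT VAT, against 9.79, 9.66, 10.27 and 9.49 in WT SAT. It was thus high in VAT of one genotype and in SAT of the other, with no overlap in either. Its depot difference, VAT minus SAT, was 2.13 in KO-LysM and -4.17 in WT on the log2 scale, and the difference between these passed (limma, adjusted p = 2.13e-07). Sfrp2, a secreted Wnt modulator of the subcutaneous position list, differed by 2.30 in KO-LysM and -1.03 in WT. Hoxc10, a homeobox gene of the same list, differed by 1.61 and -0.51 in the same order of genotypes. Gata6, a transcription factor of the visceral position list, differed by -0.40 in KO-LysM and 0.59 in WT.

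Across 11 genes of the subcutaneous position list, 8 were higher and 0 lower in VAT of KO-LysM (limma, adjusted p under 0.05), whereas in WT 0 were higher and 1 was lower. In the visceral position list, 0 were higher and 2 lower in KO-LysM, and 3 higher and 0 lower in WT. Over all genes, 1.92% were higher and 2.39% lower in KO-LysM, and 1.52% higher and 1.32% lower in WT. Of 19 mesothelial genes, 2 were higher and 2 lower in KO-LysM, and 0 higher and 1 lower in WT. The log2 of their summed level had signs opposite to Gata6. It averaged 10.16 in KO-LysM VAT, against 9.68 in KO-LysM SAT, and 9.54 in WT VAT, against 10.07 in WT SAT. Their list medians were -0.01 in KO-LysM and 0.03 in WT. Many genes of these lists were dim. Under the background level given below in all 4 groups lay 3 of 11 subcutaneous position, 7 of 11 visceral position and 11 of 19 mesothelial genes. The same held for 5356 of all 17097 genes. The 12 measured genes of seminal vesicle and epididymis, organs beside the gonadal fat of male mice, had a median depot difference of -4.11 in KO-LysM and -0.14 in WT, with 10 lower in KO-LysM VAT. Svs2, a seminal vesicle secretory protein, had 3.57, 3.77, 3.63 and 3.63 in KO-LysM VAT, against 10.17, 10.04, 9.74 and 9.31 in KO-LysM SAT. In WT, Svs2 had 3.66, 3.48, 3.61 and 3.54 in VAT, against 3.62, 4.65, 3.55 and 3.49 in SAT. Only KO-LysM SAT arrays held high levels of Svs2 among these 16. Whether the depot labels of 1 genotype are exchanged was not tested and cannot be told apart from other causes with these arrays. The group names below are therefore the labels, VAT minus SAT follows the labels in both genotypes, and the values of each genotype stand beside each shared result.

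**Figure D1:**
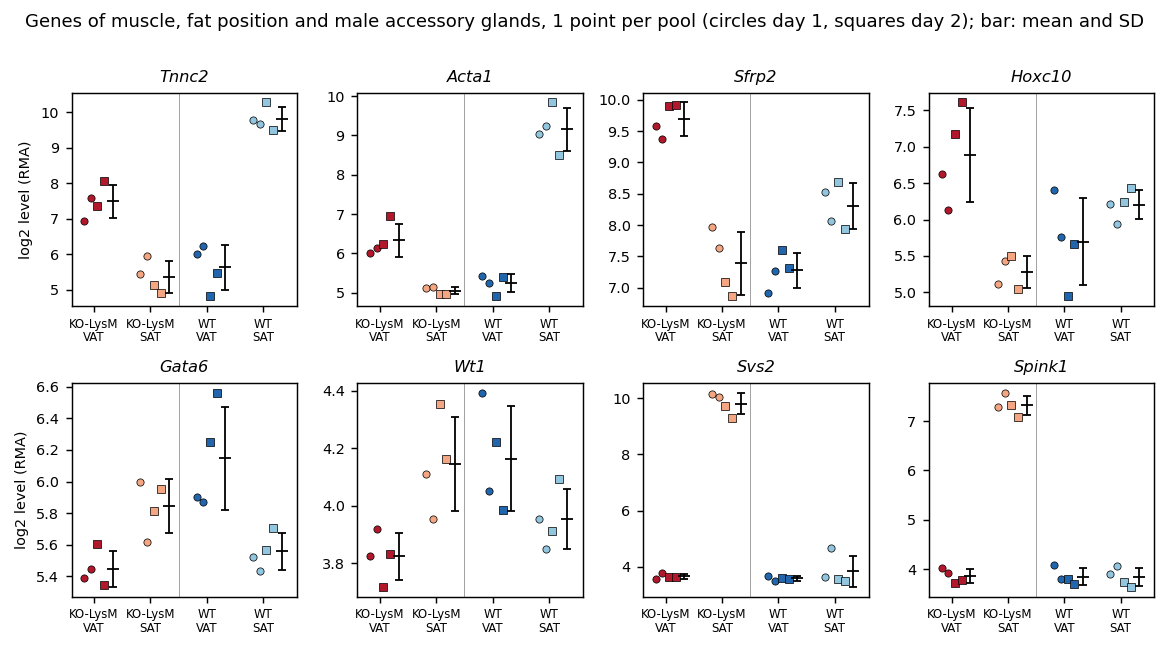
Log2 levels of genes of skeletal muscle (Tnnc2, Acta1), fat position (Sfrp2, Hoxc10, Gata6, Wt1) and male accessory glands (Svs2, Spink1) in every pool, with circles for day 1, squares for day 2, and the mean and SD of 4 pools beside them. Tnnc2 is high in KO-LysM VAT and in WT SAT, and Svs2 lies between 9.31 and 10.17 in KO-LysM SAT.

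The WT VAT arrays were also less alike than those of the other groups. Their mean correlations with the other arrays of their group across all probe sets were 0.955, 0.976, 0.968 and 0.968 for pools 1 to 4. The lowest value in any other group was 0.987, in WT SAT pool 4. Without WT VAT pool 1, the lowest of all, 495 genes passed the shared test with the same sign, 288 higher and 207 lower in VAT. The interquartile range of the values of an array, a measure of its spread, was 2.40 ± 0.21 log2 units in VAT and 2.36 ± 0.19 in SAT (SD, n = 8 each), which differed by 0.036 (two-sided p = 0.720, exact permutation test). Within WT VAT it was 2.01 and 2.15 in the pools of day 1 and 2.50 and 2.54 in those of day 2. Sucnr1 was at 3.35 to 3.61 in VAT, against 3.44 to 3.65 in SAT, and its mean lay under the background level of 4.78 in each of the 4 groups. That level is the 95th percentile of the means of 41 olfactory receptor genes, which macrophages are not expected to use. The Sucnr1 probe set could therefore not check the genotype labels.

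Receptors, lysosomal proteins and signalling genes of macrophages were among the shared genes lower in VAT, and enzymes of amino acid and fatty acid metabolism among those that were higher. Of all 17097 genes tested, 1.22% passed with the same sign in both genotypes (limma, adjusted p under 0.05), of which 163 (0.953%) were lower in VAT and 45 (0.263%) were higher. With quantile normalization the split was 448 lower and 243 higher. With pool number as a replicate block, 110 genes passed, 92 lower and 18 higher. At an unadjusted p under 0.05 the number was 2006, of which 1865 had the same sign. Changes were small: the median was -0.50 on the log2 scale among genes that were lower and 0.46 among genes that were higher, against -0.01 over all genes. Only 3 genes changed at least 2-fold, namely Svs4 and Svs5, which were lower in VAT, and Chac1, which was higher.

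All 208 genes that passed had the same sign in both genotypes, and a gene with opposite signs leaves a large residual in that fit by its construction. Each genotype's own depot difference was also tested. In KO-LysM 738 genes (4.32%) passed, 329 higher (1.92%) and 409 lower (2.39%) in VAT, and in WT 486 genes (2.84%), 260 higher (1.52%) and 226 lower (1.32%). Of the 208 shared genes, 23 passed in both genotypes, 97 in KO-LysM alone, 42 in WT alone and 46 in neither. The change was larger in KO-LysM for 126 of them and larger in WT for 82. In 179 genes the smaller of both changes was at least 0.25 on the log2 scale, and the smallest in any was 0.13. For 11 of the 208 genes the sizes differed between the genotypes at an adjusted p under 0.05, among 722 genes (4.22%) for which they did overall.

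Of the genes that passed in both genotypes, 23 (0.135% of all) had the same sign, 20 lower and 3 higher in VAT, and 100 (0.585%) had opposite signs. With each genotype fitted alone, and likewise with no day term, 1 gene passed in both with the same sign. The 2 genotypes share no arrays but share 1 estimate of the spread. The number with the same sign was 3 without WT SAT pool 3 and 57 without WT VAT pool 1, the lowest and highest among the fits that left out 1 array.

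**Figure D2:**
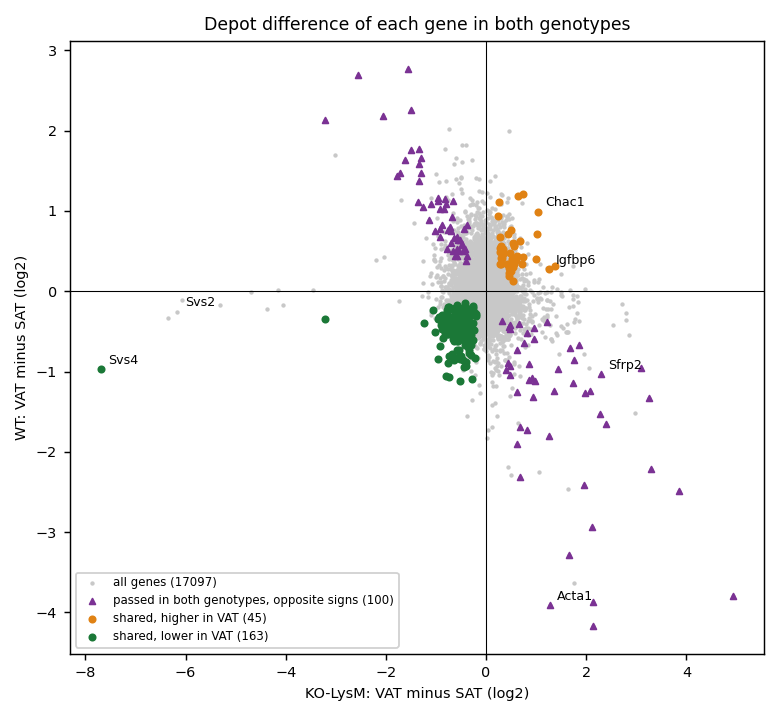
VAT minus SAT of every gene on the log2 scale, in KO-LysM on the horizontal axis and in WT on the vertical axis. The 45 shared genes that were higher lie in the upper right and the 163 that were lower in the lower left, while the 100 genes that passed with opposite signs lie in the other corners.

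Single arrays moved the number of shared genes by more than 1.5 times. It was 63 without KO-LysM SAT pool 2, 76 without KO-LysM SAT pool 3, 77 without KO-LysM VAT pool 2, 95 without WT SAT pool 3, 96 without KO-LysM VAT pool 1, 101 without WT VAT pool 3 and 104 without KO-LysM VAT pool 4. It was 125 without WT SAT pool 2, 126 without KO-LysM SAT pool 1, 127 without KO-LysM SAT pool 4, 133 without WT SAT pool 1, 134 without KO-LysM VAT pool 3 and 395 without WT VAT pool 4. In all, 61 of the 208 genes passed whichever of the 16 arrays was left out. With the spread taken within the 4 groups, 408 genes passed with the same sign, 131 higher and 277 lower, and these included all 208.

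Chac1, which degrades glutathione and is induced by the integrated stress response, rose the most. Its log2 level was 6.63, 6.42, 7.09 and 6.42 in KO-LysM VAT, against 5.43, 5.40, 5.63 and 5.91 in KO-LysM SAT. In WT, Chac1 was 5.80, 6.16, 6.95 and 7.20 in VAT, against 5.24, 5.76, 5.73 and 5.42 in SAT. Every VAT pool was above every SAT pool of its own genotype, although WT VAT pool 1 lay below KO-LysM SAT pool 4. Chac1 had a shared difference of 1.02 ± 0.14 (SE, adjusted p = 0.0102), a 2.02-fold higher level in VAT, with 1.05 in KO-LysM and 0.99 in WT. Chac1 passed whichever array was left out.

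The promoters of Chac1 and Slco2a1 are shown because these were the shared genes higher in VAT whose 250 bases upstream of the start held the letters TGATGNAA, the core bound by ATF4-type factors of the integrated stress response. Those of Retnla and Inpp5d are shown for GAGGAAGT, the core bound by PU.1-type factors of myeloid cells, in genes lower in VAT. Both strands were searched, none of these 4 windows held both motifs, and capitals mark the match. Sequences are from RefSeq, build GRCm38.p6, plus strand, at chr2:119350992-119351241 for Chac1, chr9:103008237-103008486 for Slco2a1, chr16:48842359-48842608 for Retnla and chr1:87620062-87620311 for Inpp5d.
Chac1: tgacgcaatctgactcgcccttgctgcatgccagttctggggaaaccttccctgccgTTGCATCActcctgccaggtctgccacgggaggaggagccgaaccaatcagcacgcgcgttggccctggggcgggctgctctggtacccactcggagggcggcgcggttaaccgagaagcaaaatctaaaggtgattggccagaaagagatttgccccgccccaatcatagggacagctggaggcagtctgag
Slco2a1: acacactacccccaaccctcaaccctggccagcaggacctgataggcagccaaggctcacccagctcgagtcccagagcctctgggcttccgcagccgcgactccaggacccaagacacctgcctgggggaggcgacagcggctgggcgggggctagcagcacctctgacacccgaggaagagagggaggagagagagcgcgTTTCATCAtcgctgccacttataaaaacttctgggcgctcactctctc
Retnla: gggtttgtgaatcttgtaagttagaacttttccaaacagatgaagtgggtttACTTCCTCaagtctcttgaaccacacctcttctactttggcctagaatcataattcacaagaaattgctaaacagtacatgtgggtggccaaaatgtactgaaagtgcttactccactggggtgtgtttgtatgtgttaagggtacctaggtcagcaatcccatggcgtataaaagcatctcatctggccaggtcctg
Inpp5d: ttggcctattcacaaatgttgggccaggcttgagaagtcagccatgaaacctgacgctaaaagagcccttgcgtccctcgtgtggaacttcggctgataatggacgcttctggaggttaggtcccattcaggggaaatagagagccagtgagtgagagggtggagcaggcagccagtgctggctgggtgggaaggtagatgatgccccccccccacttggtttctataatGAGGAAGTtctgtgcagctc

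TGATGNAA was found in 2 of the 36 shared genes higher in VAT that had a promoter in the table (5.56%) and in 4 of 125 that were lower (3.20%), against 2.86% of 13605 genes and 2.40% of 17065 promoters. Those that were lower were Pik3cd, Plek, Rbm47 and Atf3. GAGGAAGT was found in 6 of 125 genes that were lower (4.80%) and 2 of 36 that were higher (5.56%), against 2.83% of genes. Besides Retnla and Inpp5d, the lower ones were Hpgds, Gla, Pf4 and Pirb, and the higher ones were Trmt10a and Elovl6. In the unfolded protein response list, 5 of 21 genes held TGATGNAA. These counts describe letters in a window and no binding was measured.

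Of 12 enzymes of branched-chain amino acid metabolism, 2 rose and 0 fell, with a median of 0.13. Over all genes, 0.263% rose and 0.953% fell in the shared test, while 22.9% were above and 27.2% below 0 in both genotypes. The families of enzymes and receptors counted below were drawn up after the values had been seen and serve as description. Bcat1, which transfers the amino group of branched-chain amino acids in the cytosol, had 9.31, 9.34, 9.48 and 9.45 in KO-LysM VAT, against 8.64, 8.36, 8.70 and 8.90 in KO-LysM SAT. In WT, Bcat1 had 7.85, 8.74, 9.26 and 9.17 in VAT, against 7.66, 7.80, 7.78 and 6.96 in SAT. The depots did not overlap within either genotype, and every KO-LysM SAT pool lay above every WT SAT pool. Bcat1 had a shared difference of 0.97 ± 0.18 (SE, adjusted p = 0.0169), with 0.74 in KO-LysM (adjusted p = 0.122) and 1.21 in WT (adjusted p = 0.0151). Aldh6a1, which acts in valine breakdown, passed in both genotypes, with 0.48 in KO-LysM and 0.48 in WT and a shared difference of 0.48 ± 0.07. It is among the dimmest 40% of genes. Without those genes the branched-chain count of 2 was 1, and with no day term it was 0. Slc7a1, which imports arginine and lysine, had a shared difference of 0.69 ± 0.15 (SE, adjusted p = 0.0426), but 0.25 in KO-LysM and 1.12 in WT, and these sizes differed (adjusted p = 0.0368). It was the 1 of 15 genes named Slc7a that passed, 5 of which were above and 5 below 0 in both genotypes, with a median of -0.02. Slc7a2, another arginine transporter, passed in both genotypes with opposite signs, -2.56 in KO-LysM and 2.70 in WT. The Slc7a count was 0 without KO-LysM VAT pool 1 or 2, KO-LysM SAT pool 2 or 3, WT VAT pool 2 or 3 or WT SAT pool 1, 2, 3 or 4; and 2 without WT VAT pool 1.

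Of 12 enzymes of serine and one-carbon metabolism, 3 rose and 0 fell, with a list median of 0.28 against -0.01 over all genes, of which 0.263% rose. Psat1, which makes phosphoserine, had 10.42, 10.21, 10.33 and 10.26 in KO-LysM VAT, against 9.83, 9.52, 9.72 and 9.88 in KO-LysM SAT. In WT, Psat1 had 9.48, 10.11, 10.46 and 10.11 in VAT, against 9.53, 9.72, 9.58 and 9.05 in SAT. The depots did not overlap in KO-LysM, whereas WT VAT pool 1 lay among the WT SAT pools. Psat1 had a shared difference of 0.57 ± 0.12 (SE, adjusted p = 0.0338), 0.57 in each genotype, and neither genotype passed alone. Shmt2, the mitochondrial serine hydroxymethyltransferase, rose by 0.46 ± 0.10 and Aldh1l2, which oxidises formyl tetrahydrofolate in mitochondria, by 0.39 ± 0.08. Psph, which completes serine synthesis, differed by 0.40 ± 0.10 and did not pass (adjusted p = 0.0623). The count of 3 was 0 without KO-LysM VAT pool 1 or 2, KO-LysM SAT pool 2, 3 or 4, WT VAT pool 3 or WT SAT pool 3; and 1 without KO-LysM VAT pool 3 or 4, WT VAT pool 2 or WT SAT pool 1 or 2.

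The 16 cytosolic transfer RNA synthetases had a median of 0.21, with 12 above 0 in both genotypes, against 22.9% of all genes, and 0 below 0 in both. However, 0 passed (limma), with 6 at an unadjusted p under 0.05. The number that passed was 6 without WT VAT pool 1. Sepsecs, which completes selenocysteine on its transfer RNA, rose by 0.32 ± 0.07 (adjusted p = 0.0451). In the unfolded protein response list of 21 genes, Chac1 rose and Atf3, a stress-induced repressor, fell by 0.63 ± 0.15 (adjusted p = 0.0498). Asns, the asparagine synthetase, differed by 0.79 ± 0.21 and did not pass (adjusted p = 0.0796), with 0.43 in KO-LysM and 1.16 in WT. Atf5, a transcription factor of the same response, differed by 0.12 in KO-LysM and 0.88 in WT and did not pass in the shared test (adjusted p = 0.120).

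Genes of fatty acid synthesis and elongation followed, with 2 of 18 higher, 0 lower and 12 above 0 in both genotypes. The shares over all genes were 0.263% higher and 22.9% above 0 in both. Acss2, which makes acetyl-CoA from acetate in cytosol and nucleus, had 7.10, 7.12, 7.68 and 7.54 in KO-LysM VAT, against 6.03, 6.16, 6.41 and 6.89 in KO-LysM SAT. In WT, Acss2 had 5.60, 5.71, 6.62 and 6.40 in VAT, against 5.41, 5.44, 5.89 and 6.01 in SAT. All KO-LysM VAT pools exceeded all KO-LysM SAT pools, and the WT depots overlapped. Acss2 had a shared difference of 0.69 ± 0.11 (SE, adjusted p = 0.0102), larger in KO-LysM (0.99) than in WT (0.40, adjusted p of the difference = 0.0413). Elovl6, which elongates saturated fatty acids, rose by 0.85 ± 0.19, with 1.38 in KO-LysM and 0.32 in WT, and these sizes also differed (adjusted p = 0.0370). Fasn, the fatty acid synthase, differed by 0.27 ± 0.10 and did not pass (adjusted p = 0.258). This count of 2 was 1 without KO-LysM VAT pool 1, 2, 3 or 4, KO-LysM SAT pool 1, 2, 3 or 4, WT VAT pool 3 or WT SAT pool 3 or 4; and 4 without WT VAT pool 1.

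The other genes with the largest rises had varied roles. Gadd45a, a growth-arrest protein induced by DNA damage, rose by 0.92 ± 0.19 (adjusted p = 0.0333) and ran from 6.96 to 8.68 in VAT, against 6.44 to 7.81 in SAT. Lgi2, a secreted protein, rose by 0.86 ± 0.13 (adjusted p = 0.0102). Pla1a, a phospholipase that cleaves phosphatidylserine, rose by 0.65 ± 0.14, Slco2a1, the prostaglandin transporter, by 0.63 ± 0.15, and Map3k8, a kinase of Toll-like receptor signalling, by 0.58 ± 0.12. Cyb5r1, a reductase of cytochrome b5, rose by 0.58 ± 0.13, with 0.23 in KO-LysM and 0.94 in WT (adjusted p of the difference = 0.0423). Clic5, an intracellular chloride channel protein, passed in both genotypes, with 0.54 in KO-LysM and 0.40 in WT. Of the 16 fits that left out 1 array, Lgi2 and Clic5 passed in all, Pla1a in 8, Gadd45a and Cyb5r1 in 6, Map3k8 and Elovl6 in 5 and Slco2a1 in 2.

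Igfbp6, a secreted binding protein of insulin-like growth factors, rose by 0.76 ± 0.16, with 1.25 in KO-LysM and 0.27 in WT (adjusted p of the difference = 0.00805). Postn, a matrix protein of fibroblasts, rose by 0.48 ± 0.10 (SE, adjusted p = 0.0260), with 0.28 in KO-LysM and 0.68 in WT. Postn was the only gene of 19 stromal progenitor markers that passed, while the median of that list was 0.41, with 0.16 in KO-LysM and 0.60 in WT. The log2 of the summed level of the list was 13.15 to 13.29 in KO-LysM VAT, against 12.95 to 13.29 in KO-LysM SAT, and 12.74 to 13.61 in WT VAT, against 12.19 to 12.59 in WT SAT. None of its 19 markers lay under background in all 4 groups. Postn and Igfbp6 passed in 10 and 7 of the 16 fits that left out 1 array. The part of stromal RNA in the shared differences was not tested.

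**Figure D3:**
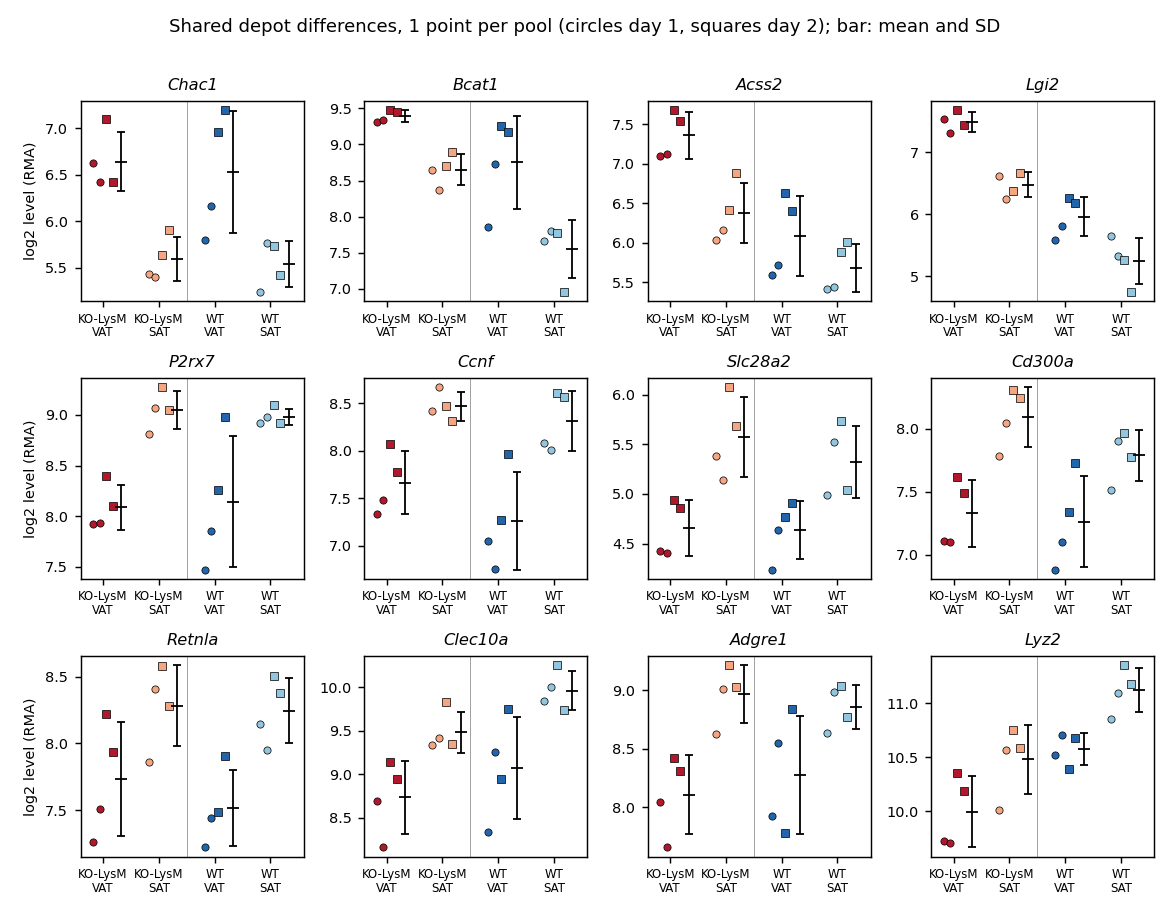
Log2 levels of 12 shared genes in every pool (circles day 1, squares day 2), with the mean and SD of 4 pools beside them. Chac1, Bcat1, Acss2 and Lgi2 are higher in VAT, and P2rx7, Ccnf, Slc28a2, Cd300a, Retnla, Clec10a, Adgre1 and Lyz2 are lower.

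Apart from 2 seminal vesicle genes, the largest falls in VAT were those of Ccnf, P2rx7 and Plek. P2rx7, an ATP-gated channel that activates the inflammasome, had 7.92, 7.93, 8.40 and 8.10 in KO-LysM VAT, against 8.81, 9.07, 9.27 and 9.05 in KO-LysM SAT. In WT, P2rx7 had 7.47, 7.86, 8.26 and 8.98 in VAT, against 8.92, 8.98, 9.10 and 8.92 in SAT. The SAT pools of both genotypes lay close together, and only WT VAT pool 4 reached them. P2rx7 had a shared difference of -0.90 ± 0.13 (SE, adjusted p = 0.0102), a 1.87-fold higher level in SAT, with -0.96 in KO-LysM and -0.84 in WT, and it passed whichever array was left out.

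Ccnf, which encodes cyclin F of a ubiquitin ligase, had 7.33, 7.48, 8.08 and 7.77 in KO-LysM VAT, against 8.42, 8.67, 8.47 and 8.31 in KO-LysM SAT. In WT, Ccnf had 7.05, 6.76, 7.27 and 7.97 in VAT, against 8.08, 8.01, 8.61 and 8.57 in SAT. The depots did not overlap within either genotype. Ccnf had a shared difference of -0.93 ± 0.13 (SE, adjusted p = 0.0102), with -0.80 in KO-LysM and -1.05 in WT. Of the 29 alternatives, P2rx7 and Ccnf passed in 28, failing in the arrays of day 2 alone. The cell cycle list, to which cyclins belong by function, had 0 of 23 genes that passed. With 1.22% of all genes passing, a list of this size can hold none by that share alone.

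Slc28a2, a concentrative nucleoside transporter, had 4.43, 4.41, 4.94 and 4.86 in KO-LysM VAT, against 5.39, 5.14, 6.07 and 5.69 in KO-LysM SAT. In WT, Slc28a2 had 4.24, 4.64, 4.77 and 4.90 in VAT, against 4.99, 5.52, 5.74 and 5.04 in SAT. All 8 VAT pools lay below all 8 SAT pools, and the VAT pools were near the background level of 4.78. Slc28a2 had a shared difference of -0.80 ± 0.12 (SE, adjusted p = 0.0102), with -0.91 in KO-LysM and -0.68 in WT.

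Such a separation of all VAT from all SAT pools was found in 10 genes of 17097 (0.0585%), each of them lower in VAT and each among the 208. Besides Slc28a2 they were Ryr1, Coro2a, Arfgef2, Dnmt3a, Dpp7, Inpp4a, Atp6v0b, Ctsz and Kmt2c. No gene had all VAT pools above all SAT pools. Ryr1, a calcium release channel, ran from 5.71 to 6.13 in VAT, against 6.24 to 6.74 in SAT. Although best known from skeletal muscle, it was lower in VAT of both genotypes, with a difference of -0.69 in KO-LysM and -0.53 in WT, whereas Tnnc2 and other muscle genes had opposite signs. Dnmt3a, a de novo DNA methyltransferase, ran from 8.67 to 9.11 in VAT, against 9.14 to 9.50 in SAT, a difference of -0.42 ± 0.07 (SE, adjusted p = 0.0131). Kmt2c, a histone methyltransferase, ran from 7.58 to 8.32 in VAT, against 8.33 to 8.68 in SAT, a difference of -0.37 ± 0.08 that was 0.03 in its probe set of highest variance (adjusted p = 0.962). Arfgef2, an exchange factor of vesicle traffic, ran from 7.06 to 8.05 in VAT, against 8.05 to 8.93 in SAT, separated only before rounding.

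The receptors Cd300a and Cd84 passed in both genotypes. Cd300a, an inhibitory receptor of myeloid cells, had 7.11, 7.10, 7.62 and 7.49 in KO-LysM VAT, against 7.78, 8.04, 8.30 and 8.24 in KO-LysM SAT. In WT, Cd300a had 6.88, 7.10, 7.34 and 7.73 in VAT, against 7.51, 7.91, 7.97 and 7.78 in SAT. The depots overlapped in WT through VAT pool 4 and SAT pool 1, and not in KO-LysM. Cd300a had a shared difference of -0.64 ± 0.09 (SE, adjusted p = 0.0102), and Cd300c2 of the same family fell too (-0.36 ± 0.08), so 2 of 6 family members passed, both lower. That count was 1 without KO-LysM VAT pool 1, 2, 3 or 4, KO-LysM SAT pool 1, 2, 3 or 4, WT VAT pool 2 or 3 or WT SAT pool 1, 2 or 3; and 4 without WT VAT pool 4. Cd84, a receptor of the SLAM family, differed by -0.69 in KO-LysM and -0.78 in WT.

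Other genes that fell in both genotypes had these values. Pmp22, a membrane protein of myelin and other cells, differed by -0.73 in KO-LysM and -0.80 in WT. Slc37a2, a sugar phosphate transporter, differed by -0.58 and -0.73 in that order, Card19, a caspase recruitment domain protein, by -0.65 and -0.57, and Gpr137b-ps, listed as a pseudogene, by -0.56 and -0.61. Dock8, an exchange factor for Cdc42, differed by -0.54 in KO-LysM and -0.59 in WT, and Cd53, a leukocyte tetraspanin, by -0.49 and -0.49. Stx3, Fbxo46, Tmem140 and the fatty acid transporter Slc27a1 also passed in both, as did Retnla, Clec4d, Clec2i and Ctsa, whose values follow.

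Other genes among the largest falls passed in at most one genotype alone. Plek, a protein kinase C substrate of blood cells, fell by 0.90 ± 0.16, Plbd1, a phospholipase-like lysosomal protein, by 0.81 ± 0.19, and Ramp3, a partner of the calcitonin-like receptor, by 0.76 ± 0.14. Svs4, with the largest shared difference of all at -4.33 ± 0.93 (SE, adjusted p = 0.0353), rested on KO-LysM. It had 3.69, 3.71, 3.81 and 3.82 in KO-LysM VAT, against 11.59, 11.78, 11.36 and 11.04 in KO-LysM SAT. In WT, Svs4 had 3.88, 3.76, 3.76 and 3.78 in VAT, against 3.90, 7.30, 3.79 and 4.05 in SAT. All WT pools but SAT pool 2 lay under background, the WT difference of -0.97 did not pass (adjusted p = 0.424), and the sizes differed between genotypes (adjusted p = 4.96e-05). Svs5 behaved alike, with -3.21 in KO-LysM and -0.34 in WT, so these 2 are shared in sign only.

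**Figure D4:**
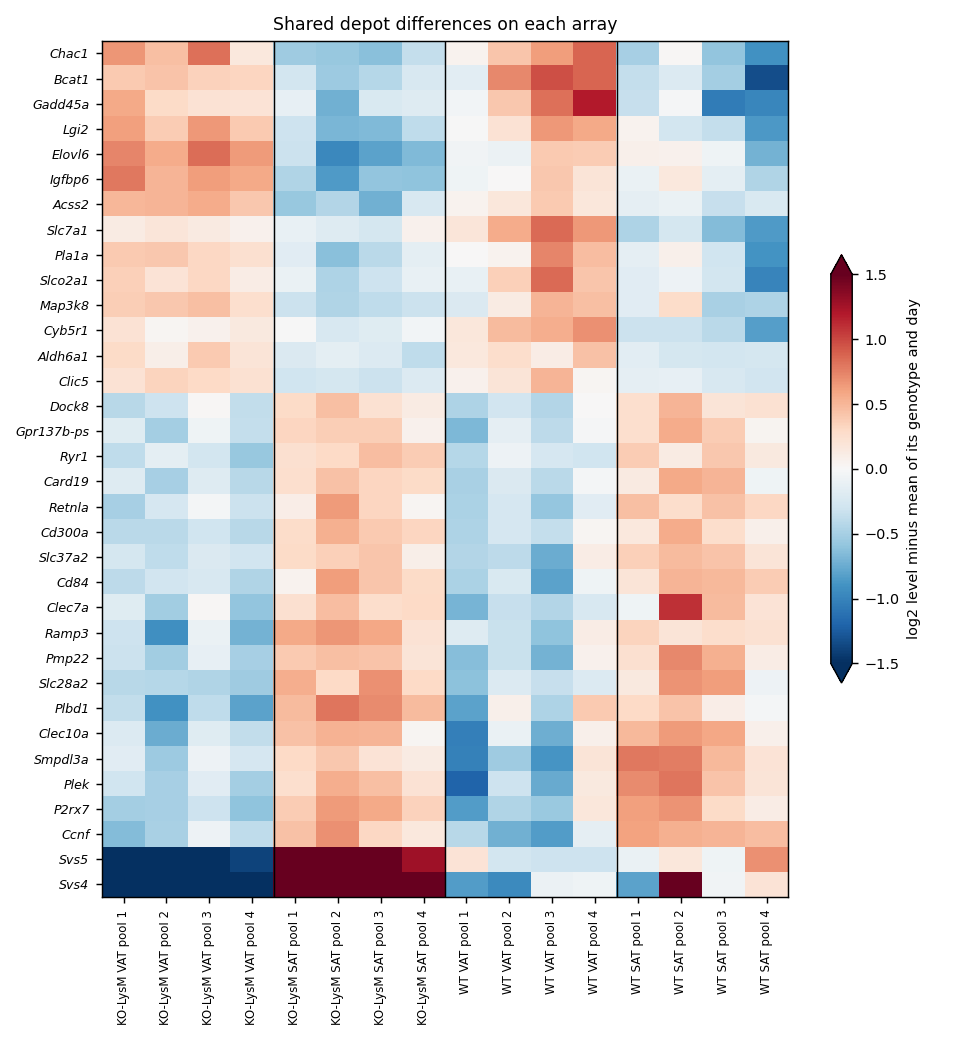
Genes with the largest shared rises and falls and those that passed in both genotypes, on each of 16 arrays. Colour is the log2 level minus the mean of its genotype and day, clipped at the ends of the scale, which Svs4 and Svs5 exceed. KO-LysM VAT and SAT columns have opposite colours for nearly every gene, while WT VAT pool 4 is close to white for several genes that were lower and Svs4 in WT is marked in SAT pool 2.

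Several of the genes that define macrophages were lower in VAT. Of 20 macrophage identity genes, 6 fell and 0 rose, 17 were below 0 in both genotypes, and the list median was -0.43, with -0.50 in KO-LysM and -0.31 in WT, against -0.01 over all genes. Among all genes, 0.953% fell and 27.2% were below 0 in both. Cd163, a scavenger receptor, was the 1 member under background in all 4 groups. Adgre1, which encodes the surface antigen named in the second protocol, had 8.04, 7.65, 8.42 and 8.31 in KO-LysM VAT, against 8.63, 9.01, 9.22 and 9.03 in KO-LysM SAT. In WT, Adgre1 had 7.92, 8.55, 7.78 and 8.84 in VAT, against 8.63, 8.98, 9.04 and 8.77 in SAT. KO-LysM depots were apart, and WT VAT pool 4 lay within the WT SAT range. Adgre1 had a shared difference of -0.72 ± 0.15 (SE, adjusted p = 0.0292), with -0.86 in KO-LysM (adjusted p = 0.0256) and -0.58 in WT (adjusted p = 0.176). In RNA of whole pools, fewer macrophages and less of these transcripts per macrophage cannot be told apart.

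Cd68, a lysosomal glycoprotein, fell by 0.48 ± 0.08 (adjusted p = 0.0127), Laptm5, a lysosomal membrane protein of leukocytes, by 0.64 ± 0.13, and Cd14, a co-receptor for endotoxin, by 0.65 ± 0.15. Tyrobp, the DAP12 adaptor, was the gene just inside the threshold, at -0.38 ± 0.09 (SE, adjusted p = 0.0499). Just outside it lay Arhgap20, Ccl6 and Blnk, with adjusted p of 0.0510 for Arhgap20 and Ccl6 and 0.0512 for Blnk. Lyz2, whose promoter drives Cre in KO-LysM mice, had 9.72, 9.71, 10.36 and 10.19 in KO-LysM VAT, against 10.01, 10.56, 10.75 and 10.59 in KO-LysM SAT. In WT, Lyz2 had 10.52, 10.71, 10.39 and 10.68 in VAT, against 10.86, 11.09, 11.36 and 11.18 in SAT. WT depots were apart and KO-LysM depots overlapped. Lyz2 differed by -0.49 in KO-LysM and -0.55 in WT, neither of which passed alone, and the shared difference was -0.52 ± 0.10 (SE, adjusted p = 0.0195).

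The count of 6 macrophage identity genes ranged from 1 to 13 when arrays were left out in turn. It was 1 without KO-LysM SAT pool 2, KO-LysM SAT pool 3 or KO-LysM VAT pool 2, 2 without KO-LysM VAT pool 1 or WT SAT pool 3, 3 without KO-LysM SAT pool 4, KO-LysM VAT pool 4, WT SAT pool 2 or WT VAT pool 3, and 13 without WT VAT pool 4. Without WT VAT pool 1, the array of lowest correlation with its group, it was 6. The log2 of the summed level of the list was 13.11 to 13.67 in KO-LysM VAT, against 13.58 to 14.04 in KO-LysM SAT, and 13.38 to 14.02 in WT VAT, against 13.82 to 14.20 in WT SAT. Over all genes, 1.92% were higher and 2.39% lower in KO-LysM VAT, and 1.52% higher and 1.32% lower in WT VAT. Markers of T cells did not share a direction: 4 of 16 were higher in KO-LysM VAT and 0 lower, and 7 were lower in WT VAT and 0 higher. The log2 of their summed level averaged 9.41 ± 0.18 in KO-LysM VAT, against 9.06 ± 0.04 in KO-LysM SAT, and 9.27 ± 0.09 in WT VAT, against 10.04 ± 0.19 in WT SAT (SD, n = 4 each). Their part in the shared differences was not tested.

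Several phagocytic and sensing receptors also passed. Of 25 genes named Clec, 5 fell and 0 rose, of 5 Fc gamma receptor genes 2 fell, and of 10 Toll-like receptors 2 fell. Among all genes tested, 0.953% fell and 0.263% rose. Clec10a, a galactose-type lectin of repair-type macrophages, had 8.69, 8.16, 9.14 and 8.94 in KO-LysM VAT, against 9.33, 9.41, 9.83 and 9.35 in KO-LysM SAT. In WT, Clec10a had 8.34, 9.26, 8.94 and 9.75 in VAT, against 9.74 to 10.25 in SAT. WT VAT pool 4 alone reached the level of WT SAT, and the shared difference was -0.82 ± 0.16 (SE, adjusted p = 0.0195). Clec7a, the receptor for fungal glucans, fell by 0.75 ± 0.15 and Clec4n, a receptor for fungal mannans, by 0.69 ± 0.11. Clec4d and Clec2i passed in both genotypes, Clec4d with -0.40 in KO-LysM and -0.44 in WT, and Clec2i with -0.51 in each. The Clec count was 3 without KO-LysM VAT pool 2 or KO-LysM SAT pool 2.

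Fcgr3, an activating receptor for immunoglobulin G, fell by 0.68 ± 0.12 and Fcgr2b, the inhibitory one, by 0.55 ± 0.10. Fcgr4 instead differed between genotypes, with 0.31 in KO-LysM and -0.94 in WT (adjusted p = 0.000266). Tlr7 and Tlr9, endosomal sensors of nucleic acid, fell by 0.37 ± 0.07 and 0.50 ± 0.10. Tlr2, a surface sensor of bacterial lipoproteins, had -0.99 in KO-LysM and 0.30 in WT and did not pass as shared. The Fc gamma receptor count was 1 without KO-LysM SAT pool 2; and 4 without WT VAT pool 4. The Toll-like receptor count was 0 without KO-LysM VAT pool 1 or KO-LysM SAT pool 2 or 3; and 1 without KO-LysM VAT pool 2 or 4, KO-LysM SAT pool 1 or 4, WT VAT pool 3 or WT SAT pool 1, 2 or 3. Cd36, a scavenger receptor for oxidised lipid, fell by 0.67 ± 0.12 (adjusted p = 0.0138), with -0.88 in KO-LysM and -0.47 in WT.

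The lysosomal genes of the families below that passed were lower in VAT. Of 18 subunits of the V-ATPase, the proton pump that acidifies lysosomes, 3 fell, 0 rose and 12 were below 0 in both genotypes, with a median of -0.21. The shares over all genes were 0.953% that fell and 27.2% below 0 in both. Atp6v0b ran from 11.57 to 11.89 in VAT, against 11.95 to 12.11 in SAT, a difference of -0.25 ± 0.05 (SE, adjusted p = 0.0293), which separated all VAT from all SAT pools. Atp6v1b2 fell by 0.37 ± 0.07 and Atp6v1f by 0.36 ± 0.08. The V-ATPase count was 0 without KO-LysM VAT pool 2, KO-LysM SAT pool 2 or WT SAT pool 3. It became 1 without KO-LysM VAT pool 4, KO-LysM SAT pool 1, 3 or 4, WT VAT pool 3 or WT SAT pool 1 or 2; and 7 without WT VAT pool 4. Of 18 cathepsins, 2 fell, namely Ctsa and Ctsz. Ctsa, which protects lysosomal neuraminidase, passed in both genotypes, with -0.52 in KO-LysM and -0.56 in WT, and Ctsz ran from 11.57 to 11.97 in VAT, against 11.97 to 12.11 in SAT, separated only before rounding. Ctsd, the main aspartic protease, differed by -0.37 ± 0.09 and did not pass (adjusted p = 0.0578). The cathepsin count was 1 without KO-LysM VAT pool 1, 2, 3 or 4, KO-LysM SAT pool 1, 2, 3 or 4 or WT SAT pool 2. It became 4 without WT SAT pool 4; and 5 without WT VAT pool 4.

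Of 32 other lysosomal hydrolases and saposins, 5 fell, 0 rose and 20 were below 0 in both genotypes, where 0.953% of all genes fell and 27.2% were below 0. Gla, an alpha-galactosidase of glycolipids, fell by 0.64 ± 0.11, Dpp7, a dipeptidase, by 0.53 ± 0.10, and Smpdl3a, an acid phosphodiesterase, by 0.82 ± 0.17. Lipa, the lysosomal acid lipase, fell by 0.35 ± 0.08 and Psap, the precursor of the saposins, by 0.24 ± 0.06. Psap was at 12.10 to 12.49 in VAT, against 12.42 to 12.63 in SAT, near the top of the scale. This count of 5 was 1 without KO-LysM VAT pool 2. It became 2 without KO-LysM SAT pool 2 or 3, WT VAT pool 3 or WT SAT pool 1, 2 or 3; 3 without KO-LysM VAT pool 1, 3 or 4 or KO-LysM SAT pool 1 or 4; and 8 without WT VAT pool 4.

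Lipa, Cd36, Gpnmb and Lgals3 were the 4 of 22 lipid-associated macrophage genes that fell, and 0 rose, with a list median of -0.28 in KO-LysM and -0.31 in WT. Gpnmb, a glycoprotein of lipid-laden macrophages, had a shared difference of -0.53 ± 0.11 (SE, adjusted p = 0.0314) but was larger in WT (-0.84) than in KO-LysM (-0.21, adjusted p of the difference = 0.0325). Slc11a1, which exports iron from phagosomes, fell by 0.45 ± 0.09 as 1 of 16 genes of iron handling, where 0.953% of all genes fell. The lipid-associated count was 1 without KO-LysM SAT pool 2, KO-LysM SAT pool 3, KO-LysM VAT pool 2, WT VAT pool 3 or WT SAT pool 1, 2 or 3. It was 2 without KO-LysM SAT pool 1, KO-LysM SAT pool 4, KO-LysM VAT pool 1 or KO-LysM VAT pool 4, and it was 9 without WT SAT pool 4 and 10 without WT VAT pool 4.

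Genes that signal downstream of such receptors were also tested. Of 14 genes of phosphoinositide kinase, Btk and Inpp5d signalling, 6 fell, 0 rose and 12 were below 0 in both genotypes, with a median of -0.45. Among all genes, 0.953% fell and 27.2% were below 0 in both. Inpp5d, a phosphatase that ends phosphoinositide signals, had 7.09, 6.82, 7.81 and 7.47 in KO-LysM VAT, against 7.70, 7.80, 8.26 and 8.05 in KO-LysM SAT. In WT, Inpp5d had 7.18, 6.88, 7.41 and 8.24 in VAT, against 7.78, 7.92, 8.37 and 8.00 in SAT. The depots overlapped in each genotype through 1 VAT pool, and the shared difference was -0.62 ± 0.12 (SE, adjusted p = 0.0177). Btk, a tyrosine kinase, fell by 0.55 ± 0.10, Pik3cd, a catalytic kinase subunit of leukocytes, by 0.49 ± 0.09, and the adaptor Pik3ap1 by 0.56 ± 0.10. Inpp4a and the adaptor Lat2 were the other members that fell. The count of 6 was 2 without KO-LysM SAT pool 2.

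Adhesion and motility genes included Fermt3, which activates leukocyte integrins, with a fall of 0.63 ± 0.11, and Itgb2, the common beta chain of those integrins, with -0.43 ± 0.10. Itgam, the CD11b chain used for selection, differed by -0.38 ± 0.14 and did not pass (adjusted p = 0.228). Itgax and Itgal, chains of dendritic cells and lymphocytes, had opposite signs, with -1.04 and 0.28 in KO-LysM and 0.40 and -0.74 in WT. Of 9 Dock genes, Dock8 and Dock10 fell, where 0.953% of all genes fell. The integrin count of 2 was 1 without KO-LysM VAT pool 1, 2, 3 or 4, KO-LysM SAT pool 1, 2, 3 or 4, WT VAT pool 3 or WT SAT pool 1, 2 or 3. The Dock count was 1 without KO-LysM VAT pool 1, 2 or 4 or KO-LysM SAT pool 1, 2 or 3.

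Genes of macrophage activation split. Of 29 genes of alternative activation, 4 fell and 1 rose, with a list median of -0.15 in KO-LysM and -0.02 in WT. Among all genes, 0.953% fell and 0.263% rose. Retnla, a secreted protein induced in repair-type mouse macrophages, had 7.26, 7.51, 8.22 and 7.93 in KO-LysM VAT, against 7.86, 8.40, 8.58 and 8.28 in KO-LysM SAT. In WT, Retnla had 7.22, 7.44, 7.49 and 7.90 in VAT, against 8.14, 7.95, 8.51 and 8.38 in SAT. WT depots were apart, and KO-LysM VAT pools 3 and 4 lay within the KO-LysM SAT range. Retnla had a shared difference of -0.64 ± 0.10 (SE, adjusted p = 0.0102), with -0.55 in KO-LysM and -0.73 in WT, both of which passed. Il1rn, the interleukin 1 receptor antagonist, fell by 0.38 ± 0.08, as did Clec10a and Clec7a given above. Klf4, a transcription factor, rose by 0.42 ± 0.09 (SE, adjusted p = 0.0374). The count of 4 was 1 without KO-LysM SAT pool 2 or KO-LysM VAT pool 2 and 2 without KO-LysM SAT pool 3, KO-LysM VAT pool 4 or WT SAT pool 3.

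Of 31 genes of classical activation 1 fell, the chemokine Ccl3, with -0.61 ± 0.11, while 6 passed in both genotypes with opposite signs. Of 28 chemokines, Ccl3 and the platelet factor Pf4 (-0.37 ± 0.07) fell, and 7 passed in both genotypes with opposite signs. None of 19 interferon response genes or 12 genes of MHC class II passed as shared, where 1.22% of all genes did, so lists of these sizes can hold none by that share alone. The interferon list had a median of -0.50 in KO-LysM and 0.25 in WT. The complement receptors C5ar1 (-0.53 ± 0.11) and C3ar1 (-0.38 ± 0.08) were the 2 of 18 complement genes that fell.

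Of 25 genes of resident macrophages, 4 fell, namely Cd36, Clec10a, Pf4 and Igf1, where 0.953% of all genes fell. In this list 8 had the same sign in both genotypes, against 50.1% of all genes, with medians of 0.04 in KO-LysM and -0.44 in WT. The depot difference differed between genotypes for 6 of the 25, against 4.22% of all genes. In both genotypes 2 passed with opposite signs, against 0.585% of all genes, and 6 lay under background in all 4 groups. Igf1, a growth factor made by tissue macrophages, differed by -1.06 in KO-LysM and -0.23 in WT, and these sizes differed (adjusted p = 0.0323). The count of 4 that fell was 1 without KO-LysM SAT pool 2, KO-LysM SAT pool 3 or KO-LysM VAT pool 2. It was 2 without KO-LysM VAT pool 1 or WT SAT pool 3. Ackr2, which scavenges chemokines, rose by 0.38 ± 0.08, and Ace, the angiotensin-converting enzyme of the monocyte list, by 0.34 ± 0.08.

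**Figure D5:**
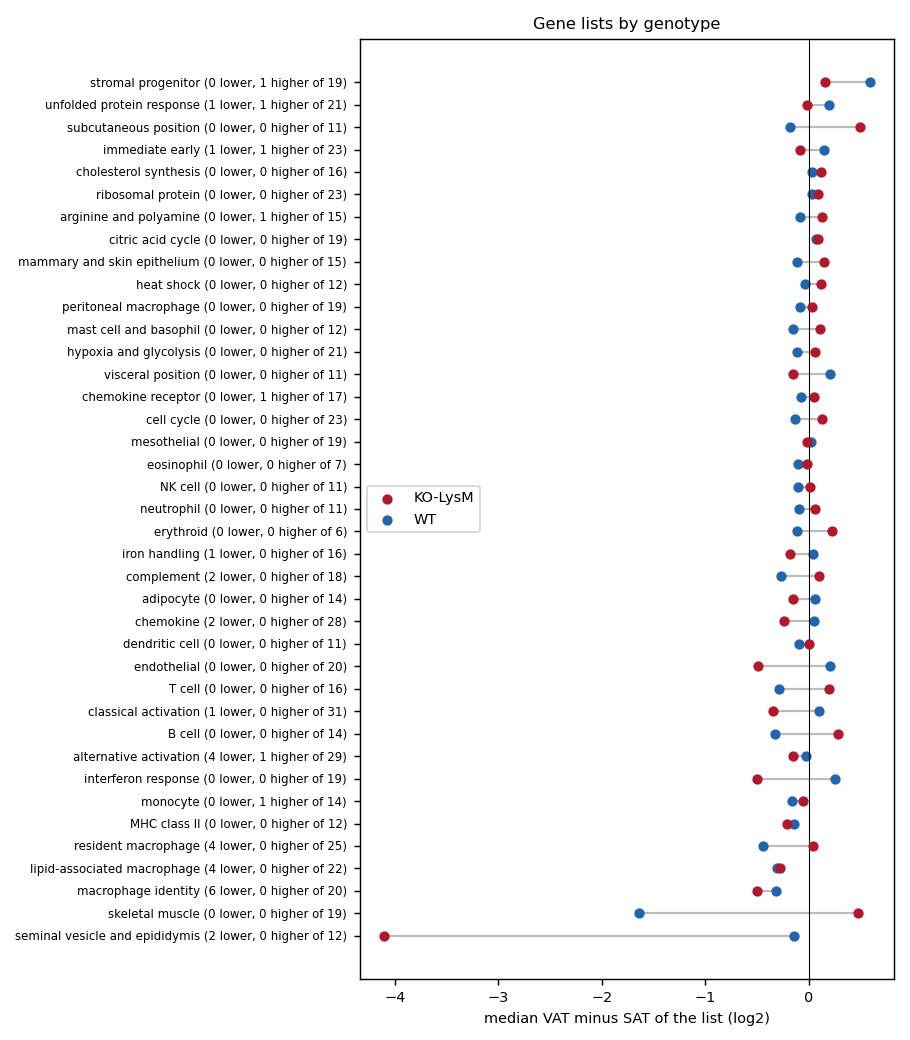
Median VAT minus SAT of each of 39 gene lists on the log2 scale, in KO-LysM and WT, with the number of members that passed the shared test in each direction. The macrophage identity and lipid-associated lists lie below 0 in both genotypes, and the skeletal muscle and seminal vesicle lists lie far apart between the genotypes. The subcutaneous position list (0.49 in KO-LysM and -0.18 in WT) is also apart. So are others, such as the interferon response list (-0.50 in KO-LysM and 0.25 in WT) and the endothelial list (-0.49 and 0.21).

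The shared genes had levels well above those of the average gene. The median of the mean level was 7.93 among the 163 that were lower in VAT and 6.38 among the 45 that were higher, against 5.42 over all genes. All genes here include 5356 that lay under the background level in all 4 groups. None of the 208 lay under the background level in all 4 groups and 6 did in 1 to 3 groups. In fits of a single day, 4 passed in the arrays of day 1 alone and 0 in those of day 2 alone (limma), where 2273 genes of the same sign had an unadjusted p under 0.05.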

How the data were processed

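RNA of 16 macrophage pools was measured on Affymetrix arrays. The deposited values are log2 expression per probe set, made by the authors with RMA in affy, per the submitters' processing notes, whose versions are not given in the sources used here, and ranged from 2.91 to 13.19. RMA draws all arrays toward 1 distribution, so a change in most genes may not be seen. The deposited values still differed in spread, with interquartile ranges of arrays from 2.01 to 2.63 and medians from 4.83 to 5.02. Of 45141 probe sets, 28898 were listed with 1 gene, 551 with several and 15588 with none, besides 104 controls. For the 7180 of 17097 genes with more than 1 probe set, the one highest on average over the arrays was taken.

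The shared difference was the VAT minus SAT coefficient of a limma fit (limma 3.58.1, R 4.3.3) with genotype and day as terms. Each genotype's own difference, and the difference between genotypes, came from a fit with 4 group means and day. Tests were two-sided with Benjamini-Hochberg adjustment over all 17097 genes at 0.05. The fits were also run on simulated data with independent noise on each array. Those data held no array that departed from its group, so that check does not cover such arrays. Array spread was compared by exact permutation. The number of arrays limits precision.

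Genes named were the 12 largest changes in each direction without unnamed gene models, up to 12 in each direction that passed in both genotypes, up to 4 of smallest p per list, Sucnr1, Lyz2 and genes of the label check. Other genes in the report (family members, the 10 genes whose depots did not overlap, the rest that passed in both genotypes and list members given as contrasts) were chosen after their values were seen. The members and the 39 lists were chosen with earlier results of these data known, and the 15 families after the values were seen. Alternatives varied the day term, block, filter, probe set rule, normalization, weights, spread term and arrays.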

Additional observations from a re-analysis of the deposited data

Results flagged for a closer look

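Of 224 gene and group combinations of 4 pools, 12 held a pool whose gap to its nearest neighbour took a larger share of the group's range than Dixon's 95% critical value, and chance gives about 5% of such groups. Bcat1 in WT SAT pool 4 was at 6.96, against 7.66 to 7.80 in the other pools of its group, a share of 0.829. Clec10a in KO-LysM SAT pool 3 was at 9.83, against 9.33 to 9.41 in the other pools of its group, a share of 0.839. Efemp1 in KO-LysM VAT pool 3 was at 4.76, against 4.50 to 4.54 in the other pools of its group, a share of 0.86. Gadd45a in KO-LysM VAT pool 2 was at 7.96, against 8.21 to 8.24 in the other pools of its group, a share of 0.893. Ramp3 in WT VAT pool 4 was at 8.00, against 7.17 to 7.30 in the other pools of its group, a share of 0.835. Ryr1 in WT VAT pool 2 was at 6.13, against 5.78 to 5.84 in the other pools of its group, a share of 0.847. Slc37a2 in WT VAT pool 4 was at 8.20, against 7.33 to 7.38 in the other pools of its group, a share of 0.946. Slpi in KO-LysM SAT pool 3 was at 8.48, against 7.99 to 8.00 in the other pools of its group, a share of 0.982. Smpdl3a in WT SAT pool 4 was at 8.25, against 8.48 to 8.53 in the other pools of its group, a share of 0.838. Svs2 in WT SAT pool 2 was at 4.65, against 3.49 to 3.62 in the other pools of its group, a share of 0.89. Svs4 in WT VAT pool 1 was at 3.88, against 3.76 to 3.78 in the other pools of its group, a share of 0.832. Svs4 in WT SAT pool 2 was at 7.30, against 3.79 to 4.05 in the other pools of its group, a share of 0.925.

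Among the 208 shared genes, Sucnr1 and the genes of the label check, 29 had a depot difference, VAT minus SAT, that differed between the genotypes in limma. The values that follow are KO-LysM minus WT on the log2 scale. Genes of skeletal muscle were Acta1 5.19 (adjusted p = 1.8e-07), Atp2a1 5.99 (adjusted p = 2.53e-09), Pvalb 4.95 (adjusted p = 2.12e-07) and Tnnc2 6.29 (adjusted p = 2.13e-07). Seminal vesicle genes and the secreted inhibitor Spink1 were Spink1 -3.46 (adjusted p = 1.49e-10), Svs2 -5.91 (adjusted p = 2.53e-09), Svs3a -5.95 (adjusted p = 1.05e-11), Svs3b -4.18 (adjusted p = 1.28e-10), Svs4 -6.71 (adjusted p = 4.96e-05) and Svs5 -2.87 (adjusted p = 1.24e-05). Genes of fat position and stromal development were Sfrp2 3.33 (adjusted p = 2.32e-05), Hoxc10 2.12 (adjusted p = 0.00759), Shox2 0.96 (adjusted p = 0.00152), Tbx15 0.85 (adjusted p = 0.00225), Gata6 -0.99 (adjusted p = 0.00216), Hoxc8 -0.95 (adjusted p = 0.00176) and Tcf21 -0.69 (adjusted p = 0.00648). Genes of the mesothelial list were Krt18 -1.36 (adjusted p = 0.000478) and Slpi 2.60 (adjusted p = 5.88e-06). Svs4 and Svs5 are among the 208 shared genes. The other shared genes were Acss2 0.59 (adjusted p = 0.0413), Elovl6 1.06 (adjusted p = 0.037), Igfbp6 0.98 (adjusted p = 0.00805), Gpnmb 0.62 (adjusted p = 0.0325), Cyb5r1 -0.71 (adjusted p = 0.0423), Slc7a1 -0.86 (adjusted p = 0.0368), Igf1 -0.83 (adjusted p = 0.0323), Adap2 -0.57 (adjusted p = 0.0352) and AI467606 0.82 (adjusted p = 0.047). The remaining gene was Thbd of the visceral position list, with -0.83 (adjusted p = 0.0117).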

How the results depend on the processing

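The number of shared genes, 208 in the fit as reported, was 408 with 4 group means and day, 20 with no day term, 4 in day 1 arrays and 0 in day 2 arrays alone (limma, 2273 genes of the same sign at an unadjusted p under 0.05), 691 with quantile normalization, 82 with arrays centred on their medians, 975 with array weights and 961 with array spread as a term. The dim-gene filter, both probe set rules and the trend and robust fit stayed within 1.5 times, between 173 and 267. The groups share pool numbers, and the labels do not say whether a number marks shared mice. Deviations of same-number VAT and SAT arrays correlated at 0.167 to 0.587 in KO-LysM and -0.480 to 0.468 in WT. Between all groups, arrays of the same number had a median correlation of 0.351 (highest 0.632). Arrays of the same day but another number had 0.243 (highest 0.725). Only 5 of 16 arrays correlated best with their own number, so pairing is not settled. With pool number as a replicate block, 110 genes passed as shared, 17 in both genotypes and 618 differed between genotypes. Genes that passed in both genotypes with the same sign, 23 as reported, were 1 with no day term, 7 on day 1, 14 on day 2 (12 higher, 2 lower), 121 with quantile normalization, 9 with centred arrays, 79 with array weights, 207 with array spread as a term and 1 with each genotype fitted alone. Genes whose depot difference differed between genotypes, 722 as reported, were 455 with no day term, 330 on day 1, 1904 on day 2, 1209 with array weights and 1694 with array spread as a term. Leaving out 1 array gave 63 to 495 shared genes (288 higher and 207 lower at the highest, without WT VAT pool 1), 3 to 57 in both genotypes and 546 to 1310 that differed. Of the 208 genes, 204 kept their direction in all 29 alternatives. The dim-gene filter removed 3, namely Abitram, Aldh6a1 and Mtx3. Kmt2c turned to 0.03 with the probe set of highest variance (-0.37 as reported). None of the 208 passed in all 29. The cause of these changes was not tested.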
